A study of Mus musculus with 8 samples.

Results

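The 9 genes Mpeg1, Lyz2, Ly86, Cd14, Cd68, C1qa, C1qb, C1qc and Mrc1 mark monocytes and macrophages. They were read from all 11 probe sets that the platform annotation gives to exactly 1 of them, out of 34945 such probe sets for 18193 genes. Expression was measured in multipotent progenitors sorted from marrow of female mice of the C57BL6 background at 8 to 10 weeks of age. The sort kept cells without lineage markers and without CD150 that carried Sca-1, c-Kit and CD48. The mice were either wild type (WT) or carried FLT3-ITD, a tandem duplication inside the gene of the cytokine receptor FLT3. The labels give neither the number of mutant alleles nor the mouse behind each array, and the p-values therefore cover the spread of these arrays alone, which may be technical. Each genotype had 4 arrays, replicates 1, 2, 3 and a further array numbered 1 with the tag 037, called replicate 037, which may repeat replicate 1.

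Monocytes and macrophages arise from multipotent progenitors through myeloid progenitors, and the genes described here are switched on at different steps of that path. Mpeg1 encodes perforin-2, a pore-forming protein of the endosome that acts on engulfed bacteria, and Lyz2 encodes lysozyme M, which cleaves bacterial cell walls and is made from early myeloid stages onward. C1q, the first component of the classical complement pathway, is made mainly by tissue macrophages, and Mrc1 encodes the mannose receptor of such cells. Monocytes, macrophages and dendritic cells share several of these genes.

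All values are log2 expression from RMA. Array medians lay between 5.98 and 6.05, and a probe set below them is called dim here. The array least like the rest was FLT3-ITD replicate 1 (r = 0.948 to 0.959 over probe sets). The 3′ minus 5′ signal of the Gapdh controls, which reflects RNA quality, was largest in FLT3-ITD replicate 037, 2.99 against 1.82 to 2.29 elsewhere. Of the sorting markers, Kit read 9.28 to 9.80 in WT and 8.77 to 9.29 in FLT3-ITD, and the CD150 gene Slamf1 read below the array median on all 8 arrays. Cd48 was higher in FLT3-ITD by 1.06 ± 0.12 (SE; limma adjusted p = 0.0150), a call that ended without WT replicate 1 (0.0532), WT replicate 2 (0.0720), FLT3-ITD replicate 2 (0.0659) or FLT3-ITD replicate 3 (0.0595), and without both 037 arrays (0.0617). Flt3 read 1.17 lower (difference −1.17 ± 0.19; limma adjusted p = 0.0704). It passed without FLT3-ITD replicate 1 (0.0152), with replicates 1 and 037 averaged (0.0372), with dim probe sets filtered out (0.0498) and with array weights (0.0260). The progenitor marker Cd34 differed by −0.08 ± 0.10 and Ptprc, which encodes CD45, by 0.00 ± 0.16, neither past the test. The Sca-1 gene Ly6a was not analysed here.

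Promoters of 7 of the 9 genes were used from the RefSeq promoter table of build GRCm38.p6, without Cd14 and C1qa. Mpeg1 and Ly86 are shown because their arrays did not overlap between genotypes, and Lyz2 as a bright member that did not pass the test. Each line gives the 250 bases before the gene's start on the gene's own strand. AGGAAG, a form of the site bound by PU.1 and other ETS factors, is in capitals on either strand. Shorter forms of that site were not marked.
Mpeg1, chr19:12460520-12460769, plus strand: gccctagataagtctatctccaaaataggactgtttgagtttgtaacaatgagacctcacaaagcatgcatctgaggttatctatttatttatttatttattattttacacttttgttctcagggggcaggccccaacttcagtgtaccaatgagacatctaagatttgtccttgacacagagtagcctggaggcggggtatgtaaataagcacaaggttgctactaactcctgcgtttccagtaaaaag
Ly86, chr13:37345095-37345344, plus strand: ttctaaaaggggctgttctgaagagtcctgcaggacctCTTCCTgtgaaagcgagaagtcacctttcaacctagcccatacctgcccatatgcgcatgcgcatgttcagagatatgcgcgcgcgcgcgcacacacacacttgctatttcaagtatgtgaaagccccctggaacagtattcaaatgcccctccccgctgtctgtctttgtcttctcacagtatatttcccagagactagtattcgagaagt
Lyz2, chr10:117282273-117282522, minus strand: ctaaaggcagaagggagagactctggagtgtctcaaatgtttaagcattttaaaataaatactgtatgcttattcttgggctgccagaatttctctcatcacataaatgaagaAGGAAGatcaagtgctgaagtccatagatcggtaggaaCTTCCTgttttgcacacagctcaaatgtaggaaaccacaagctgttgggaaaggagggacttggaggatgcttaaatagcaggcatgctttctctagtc
The motif AGGAAG was found 1 time in the Ly86 window, starting 212 bases before the start, 2 times in the Lyz2 window, at 137 and 99 bases, and 0 times in the Mpeg1 and Cd68 windows. It was found 1 time in C1qb, 2 times in C1qc and 3 times in Mrc1, and 29.5% of all 32851 promoter windows of this length held it. The longer PU.1-type motif GAGGAAG, which contains AGGAAG, was found in C1qc and Mrc1, and in 10.6% of all windows. The ETS-IRF composite motif (GGAA and GAAA with any 2 bases between them), the IRF motif (GAAA and GAAA with any 2 bases between) and the STAT motif TTCNNNGAA were searched on both strands and found in none of the 7 windows, against 2.3%, 2.98% and 7.02% of all windows. These are matches of letters in a short window and say nothing about where a factor binds.

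Mpeg1 was 8.24-fold higher in FLT3-ITD, and the other 8 genes did not pass the test. Each array is a mixture of sorted cells, in which more cells of a type and more RNA per cell cannot be told apart. Of the 11 probe sets, 1 was higher and 0 were lower by limma over all 34945, against 0.137% higher and 0.02% lower over all probe sets. At an unadjusted p under 0.05, those of Mpeg1 and Ly86 were higher and 2 of C1qb were lower, against 4.48% and 3.55% of all probe sets. The genotypes did not overlap for Mpeg1 and Ly86, both higher (3.07% of all probe sets), nor for 1 dim probe set of C1qb, lower (2.17%). With 1 probe set per gene, the brightest, Mpeg1 was again the 1 member past the test (limma adjusted p = 0.00479), against 0.275% of genes higher and 0.0989% lower. Over the 9 genes, the median difference was 0.06, with 5 positive and 4 negative, and over all 18193 genes it was 0.03. The plot of members by array and the plot of their differences show Mpeg1 and Ly86 far above the rest. The x_at probe sets of C1qb lay far below, at −2.49 and −1.53, without passing the test.

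**Figure D1:**
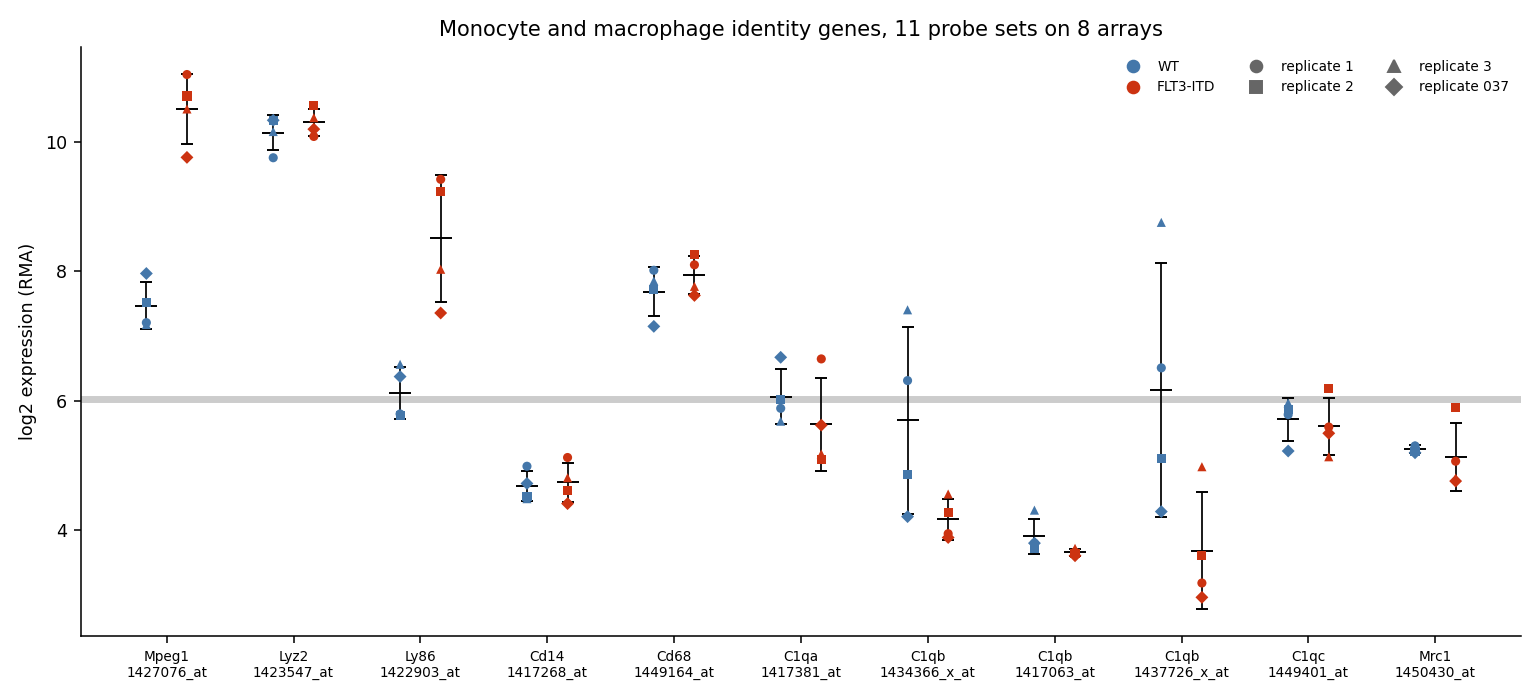
Log2 expression (vertical axis) of the 11 probe sets of the 9 genes; each symbol is 1 array, its shape the replicate, with WT in blue and FLT3-ITD in red. Black bars show the mean and SD of 4 arrays, and the grey band spans the array medians of 5.98 to 6.05. The arrays of Mpeg1 and Ly86 do not overlap between genotypes, with Mpeg1 above the band throughout and Ly86 below it in 2 WT arrays, whereas Cd14 and Mrc1 lie below it on all 8 arrays.

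**Figure D2:**
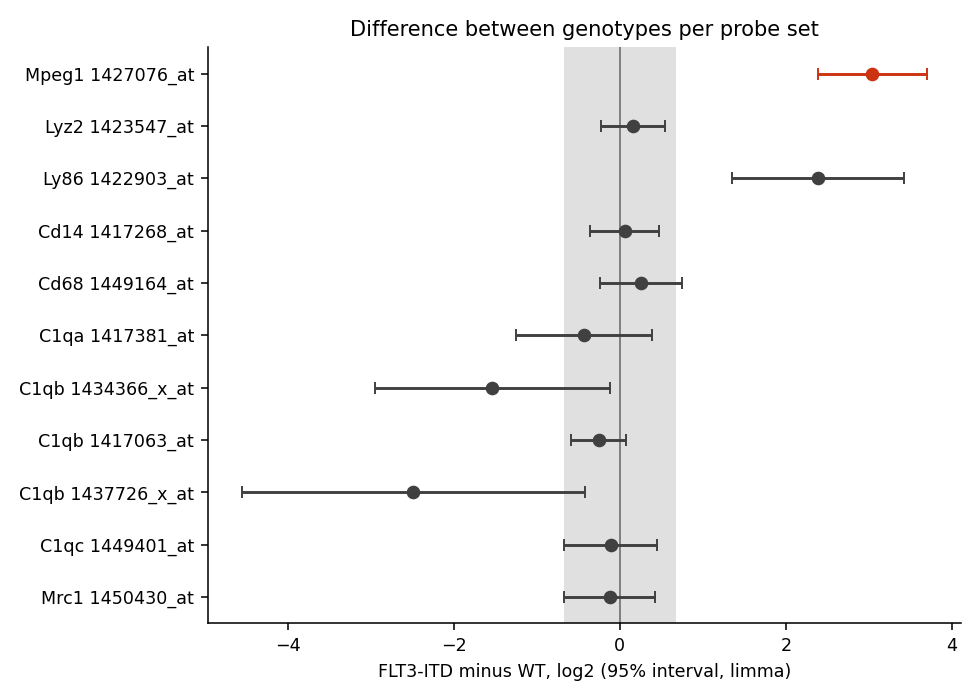
FLT3-ITD minus WT on the log2 scale for each probe set, with limma's 95% interval; red marks the 1 probe set past the test. The grey band holds the middle 95% of differences over all 34945 probe sets, −0.66 to 0.67.

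Mpeg1 read 7.21, 7.52, 7.18 and 7.97 in WT replicates 1, 2, 3 and 037. In FLT3-ITD the same replicate numbers read 11.05, 10.72, 10.51 and 9.77. All 4 FLT3-ITD arrays lay above all 4 WT arrays, with a gap of 1.80 between the nearest pair. The means were 7.47 ± 0.37 and 10.51 ± 0.54 (SD, n = 4 each). The difference was 3.04 ± 0.29 (SE; 95% interval 2.39 to 3.70), or 8.24-fold (limma adjusted p = 0.00641). Mpeg1 ranked at 16 of 34945 probe sets by p and at 22 by size of rise. It lay above the array median on all 8 arrays, so its rise did not start from a dim value. Without FLT3-ITD replicate 1 the difference was 2.86 (limma adjusted p = 0.0132), and without FLT3-ITD replicate 037 it was 3.29 (limma adjusted p = 0.00178). Leaving out any single array gave limma adjusted p of 0.00178 to 0.0376. In a fit with the replicate number as a block, Mpeg1 did not pass (limma adjusted p = 0.118).

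Ly86 encodes MD-1, the secreted partner that holds the receptor RP105 (gene Cd180) at the surface of B cells and myeloid cells, where the pair modulates responses to lipopolysaccharide. It read 5.79, 5.76, 6.56 and 6.37 in WT replicates 1, 2, 3 and 037. In FLT3-ITD these replicates read 9.43, 9.23, 8.03 and 7.36. The genotypes did not overlap, with a gap of 0.79 between the nearest arrays, and the FLT3-ITD arrays spanned 2.07 against 0.80 in WT. The means were 6.12 ± 0.40 and 8.51 ± 0.99 (SD, n = 4 each). The difference of 2.39 ± 0.45 (SE; 95% interval 1.36 to 3.42) did not pass the test over all probe sets (unadjusted p = 0.000599; limma adjusted p = 0.129), although it ranked at 38 of 34945 by size of rise. Only 2 of 4 WT arrays lay above the array median. Without FLT3-ITD replicate 037, the lowest of its genotype for Ly86, the difference was 2.77 and passed (limma adjusted p = 0.0491); leaving out any other single array gave adjusted p of 0.184 to 0.324.

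Mpeg1 and Ly86 shared the order of the FLT3-ITD arrays, highest in replicate 1 and lowest in replicate 037. Of the 48 probe sets called higher, 24 (50.0%) were lowest in replicate 037 within FLT3-ITD and 23 (47.92%) highest in replicate 1, against 23.67% and 30.99% of all probe sets. Replicate 037 is the array with the largest Gapdh 3′ minus 5′ difference and replicate 1 the array that correlated least with the others; their part in this order was not tested. The genes whose centred values over the 8 arrays lay closest to Mpeg1, by root mean square difference, were Naaa, a lysosomal amidase, at 0.36, the MHC class II chain H2-Aa at 0.37 and Tnfsf11, which encodes RANK ligand, at 0.44. Their differences were 3.39 ± 0.33, 3.13 ± 0.20 and 2.37 ± 0.27 (SE; limma adjusted p = 0.00654, 0.000756 and 0.0150). These 3 genes were picked for values like those of Mpeg1 on the same arrays. The choice itself favours rises of this size, so they are no separate support for the rise of Mpeg1. The call of Tnfsf11 ended without WT replicate 2 (0.0720), WT replicate 3 (0.0780), FLT3-ITD replicate 2 (0.0605) or FLT3-ITD replicate 3 (0.0528). In WT, Naaa and Tnfsf11 were dim on all 4 arrays, unlike Mpeg1 and H2-Aa. The plot of centred values shows the genotypes apart for all of these genes, with FLT3-ITD replicate 037 the lowest of its genotype for Mpeg1, Ly86, Naaa and H2-Aa.

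**Figure D3:**
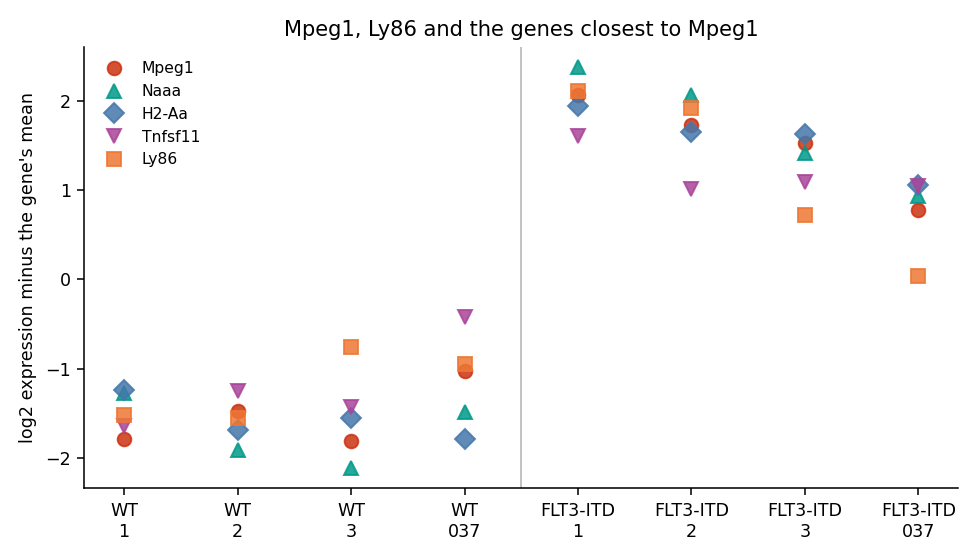
Log2 expression minus each gene's own mean over 8 arrays (vertical axis) for Mpeg1, Ly86 and the 3 genes closest to Mpeg1; each symbol is 1 array. Mpeg1 lies between −1.81 and −1.02 in WT and between 0.78 and 2.06 in FLT3-ITD, and Ly86 reads 0.04 in FLT3-ITD replicate 037.

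Lyz2 and Cd68 were bright in both genotypes and did not pass the test. Lyz2 read 9.76, 10.33, 10.17 and 10.34 in WT replicates 1, 2, 3 and 037, and 10.09, 10.57, 10.38 and 10.20 in FLT3-ITD. The groups overlapped, at 10.15 ± 0.27 and 10.31 ± 0.21 (SD, n = 4 each). FLT3-ITD minus WT was 0.16 ± 0.17 (SE; limma adjusted p = 0.855). The 95% interval of −0.22 to 0.54 holds no change as large as that of Mpeg1. Lyz2 lies next to its near copy Lyz1 in the annotation, so the 2 genes can share probe signal. Of 3 probe sets named for Lyz1, those with the suffix x_at, which marks probes that may match several transcripts, were bright and read 0.46 ± 0.24 and 0.55 ± 0.21 higher (SE; limma adjusted p = 0.687 and 0.558). The third, 1450822_at, was dim on all 8 arrays and differed by 0.06 ± 0.10.

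Cd68 encodes macrosialin, a glycoprotein of the late endosome and lysosome. It read 8.02, 7.72, 7.85 and 7.15 in WT replicates 1, 2, 3 and 037. In FLT3-ITD it read 8.10, 8.27, 7.77 and 7.63, overlapping with WT. The difference was 0.26 ± 0.22 (SE; 95% interval −0.24 to 0.75; limma adjusted p = 0.821).

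Cd14 and Mrc1 were dim on every array. Cd14 encodes a co-receptor that hands lipopolysaccharide to TLR4. It read 4.98, 4.51, 4.48 and 4.72 in WT and 5.12, 4.60, 4.81 and 4.41 in FLT3-ITD, in the order of replicates 1, 2, 3 and 037. These values overlapped, and the difference was 0.06 ± 0.18 (SE; 95% interval −0.36 to 0.47; limma adjusted p = 0.958), turning to −0.07 without FLT3-ITD replicate 1. Mrc1 stayed within 5.19 to 5.30 in WT, while FLT3-ITD replicates 1, 2, 3 and 037 read 5.06, 5.89, 4.80 and 4.75. Its difference was −0.12 ± 0.24 (SE; 95% interval −0.67 to 0.42; limma adjusted p = 0.931), with 1 FLT3-ITD array above all WT arrays and 3 below. At dim values RMA compresses differences, so a small change in Cd14 or Mrc1 may not have been detectable.

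C1q is built from A, B and C chains, encoded by C1qa, C1qb and C1qc, which are direct neighbours on chromosome 4 in the annotation with no other protein-coding gene between them. None of their 5 probe sets passed the test. C1qa read 5.88, 6.02, 5.68 and 6.67 in WT replicates 1, 2, 3 and 037 and 6.65, 5.09, 5.17 and 5.62 in FLT3-ITD, above the array median on 1 array of each genotype. The difference was −0.43 ± 0.36 (SE; limma adjusted p = 0.819). C1qc read 5.78, 5.87, 5.96 and 5.22 in WT and 5.59, 6.19, 5.13 and 5.49 in FLT3-ITD. It differed by −0.11 ± 0.25 (SE; limma adjusted p = 0.942), and by 0.05 without FLT3-ITD replicate 3.

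Of the 11 probe sets, the x_at pair of C1qb had the largest SD within WT. The first, 1437726_x_at, read 6.51, 5.11, 8.76 and 4.28 in WT replicates 1, 2, 3 and 037. In FLT3-ITD it read 3.18, 3.60, 4.98 and 2.95, dim on all 4 arrays. WT replicate 3 was the highest array and WT replicate 037 lay within the FLT3-ITD range. The difference was −2.49 ± 0.91 (SE; 95% interval −4.55 to −0.42; unadjusted p = 0.0236; limma adjusted p = 0.526), and −1.62 without WT replicate 3.

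The other x_at probe set of C1qb, 1434366_x_at, read 6.31, 4.85, 7.41 and 4.20 in WT and 3.94, 4.26, 4.55 and 3.88 in FLT3-ITD. It repeated the order of the WT arrays and differed by −1.53 ± 0.62 (SE; unadjusted p = 0.0371; limma adjusted p = 0.583), and by −0.96 without WT replicate 3. The third, 1417063_at, was dim throughout, at 3.79, 3.72, 4.30 and 3.79 in WT and 3.66, 3.63, 3.71 and 3.60 in FLT3-ITD. Its genotypes did not overlap, and it differed by −0.25 ± 0.14 (SE; limma adjusted p = 0.722), and by −0.12 without WT replicate 3. All 3 probe sets had WT replicate 3 as their highest array, as the plot of C1q probe sets shows. C1qc also had its highest WT value there, at 5.96, whereas C1qa had its lowest.

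**Figure D4:**
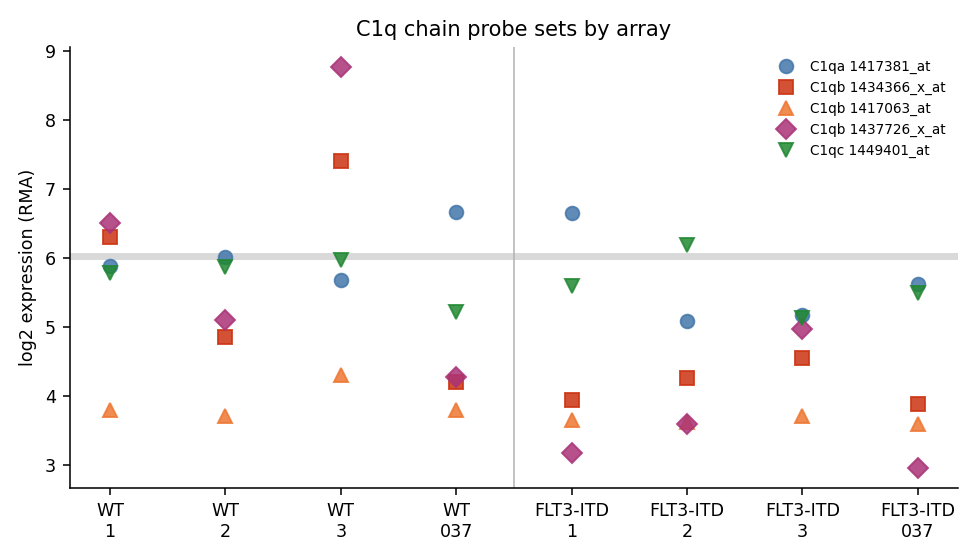
Log2 expression (vertical axis) of the 5 probe sets of C1qa, C1qb and C1qc; each symbol is 1 array and the grey band spans the array medians. The x_at probe sets of C1qb reach 8.76 and 7.41 in WT replicate 3 and stay under 5 in FLT3-ITD.

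None of the other listed markers of monocytes and macrophages passed the test. Of 24 listed, 23 were measured, each read from its gene's brightest probe set, and by limma, adjusted over all 34945 probe sets, 0 passed, against 0.181% higher and 0.0275% lower over the brightest probe sets of all genes. At an unadjusted p under 0.05, 4 were higher and 2 lower, against 4.8% and 3.08% of all 18193 genes, shares that also stand behind the unadjusted counts of the other lists. The median difference was 0.03, as over all genes. The genotypes did not overlap for Ccr2, F13a1 and Ms4a6c, all higher, and for Cd5l, lower, against 3.41% and 2.02% of all genes; Ms4a6c and Cd5l are named after their values were seen. Ccr2, the chemokine receptor by which monocytes leave the marrow, read 5.37, 3.68, 5.71 and 6.27 in WT and 9.27, 9.01, 9.15 and 8.07 in FLT3-ITD. It differed by 3.62 ± 0.53 (SE; limma adjusted p = 0.0508), above the threshold of 0.05. It passed in 5 of 16 alternatives, without WT replicate 2, its lowest array (0.0376), with dim probe sets filtered out (0.0229), with arrays centred (0.0478), with an intensity trend (0.0328) and with array weights (0.0325). F13a1, coagulation factor XIII A, a gene of classical monocytes, differed by 1.60 ± 0.32 (SE; limma adjusted p = 0.147), and Ms4a6c by 1.72 ± 0.40 (0.229). Cd5l, a secreted protein of tissue macrophages, read 6.78 ± 0.46 in WT and 5.59 ± 0.49 in FLT3-ITD (SD, n = 4 each), a difference of −1.19 ± 0.30 (SE; limma adjusted p = 0.261). In both genotypes the means of 11 of the 23 were dim, among them the macrophage surface marker Adgre1, at 3.98 to 4.38 in WT and 4.15 to 4.56 in FLT3-ITD.

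Among partners of CD14 and MD-1, 10 of 12 listed genes were measured and 0 passed by limma, with 2 higher and 0 lower at an unadjusted p under 0.05 and a median difference of 0.24. Cd180, which encodes the MD-1 partner RP105, read 7.53, 7.68, 7.37 and 6.72 in WT and 8.70, 8.00, 8.30 and 8.44 in FLT3-ITD. The genotypes did not overlap, and the difference was 1.03 ± 0.23 (SE; limma adjusted p = 0.200). Tlr2, a receptor for bacterial lipoproteins, differed by 0.67 ± 0.17 (limma adjusted p = 0.281). In the classical complement pathway and C1q receptors, 10 of 12 were measured and 0 passed by limma, with 2 higher and 1 lower at an unadjusted p under 0.05 and a median of 0.15. Lrp1, a scavenger receptor that takes part in uptake of C1q-coated cells, differed by 1.14 ± 0.27 (limma adjusted p = 0.235) and the complement component C2 by 0.39 ± 0.11 (limma adjusted p = 0.366).

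Of 9 measured transcription factors of monocyte development, 1 was higher and 0 were lower by limma, against 0.181% and 0.0275% of all genes. At an unadjusted p under 0.05, 2 were higher and 1 lower, against 4.8% and 3.08%. The median difference was 0.06. The genotypes did not overlap for Irf8, higher, and Nr4a1, lower, against 3.41% and 2.02% of all genes. Nr4a1, named after its values were seen, differed by −1.04 ± 0.25 (SE; limma adjusted p = 0.233). Irf8, which directs progenitors toward monocytes and dendritic cells, read 7.09, 6.33, 6.71 and 7.75 in WT and 9.61, 9.74, 9.08 and 10.03 in FLT3-ITD. It rose by 2.64 ± 0.31 (SE; limma adjusted p = 0.0182). That call ended without WT replicate 1 (0.0619), WT replicate 2 (0.0602), WT replicate 3 (0.0952) or FLT3-ITD replicate 2 (0.0807). Unlike Mpeg1, Irf8 was highest in FLT3-ITD replicate 037.

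Markers of other cell types are given beside these results. The sort for cells without lineage markers is meant to remove mature blood cells, and the labels do not say how pure the sorted cells were. Dendritic cell markers were higher in FLT3-ITD for 4 of 11 measured, with 8 not overlapping and a median of 1.86, against 0.181% called higher and 3.41% not overlapping over all genes. These 4 were H2-Ab1, by 3.58 ± 0.17, H2-Aa, Cd74, the invariant chain of MHC class II, by 4.12 ± 0.31, and H2-Eb1, by 4.02 ± 0.38 (SE; limma adjusted p = 0.000159, 0.000756, 0.00185 and 0.00641). All 4 are MHC class II chains or the invariant chain. Ciita, Zbtb46, Xcr1 and Itgax did not overlap between genotypes but did not pass. Batf3 at 0.22 ± 0.16, Cd209a at 0.30 ± 0.16 and Siglech at −0.02 ± 0.10 overlapped. The mean log2 level over the 11 ranged from 6.05 to 6.18 in WT and from 7.52 to 8.52 in FLT3-ITD, moving with Mpeg1 and Ly86, and its part in their differences was not tested. Over the 23 other monocyte and macrophage markers the mean level ranged from 5.79 to 5.95 in WT and from 5.96 to 6.28 in FLT3-ITD.

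B cells also express Ly86, Cd180 and MHC class II. Of 7 measured B cell markers 0 passed by limma, 2 were higher and 0 lower at an unadjusted p under 0.05, and their mean level ranged from 5.17 to 5.53 in WT and from 5.43 to 5.52 in FLT3-ITD. The largest differences by p were Fcrla at 0.66 ± 0.19 (limma adjusted p = 0.371) and Cd22 at 0.31 ± 0.13 (0.594). The genotypes did not overlap for Fcrla and Cd22, both higher, against 3.41% of all genes. Cd22, Cd79a and Ms4a1 were dim on all 8 arrays. Of 9 mature neutrophil markers 0 passed by limma, with 0 higher and 2 lower at an unadjusted p under 0.05, namely Ngp at −2.39 ± 0.68 (limma adjusted p = 0.367) and Ltf at −0.77 ± 0.31 (0.585). The median of that list was −1.05. Of 5 erythroid markers 0 were higher and 1 lower by limma, against 0.181% and 0.0275% of all genes. At an unadjusted p under 0.05, 0 were higher and 2 lower. The called gene was Hbb-b2, at −2.76 ± 0.31 (limma adjusted p = 0.0150). That call ended without WT replicate 1 (0.0563), WT replicate 2 (0.0512), WT replicate 3 (0.0780) or FLT3-ITD replicate 2 (0.0605), with replicates 1 and 037 averaged (0.0565) and without both 037 arrays (0.117). Slc4a1 differed by −2.10 ± 0.34 (SE; limma adjusted p = 0.0665). The genotypes did not overlap for either gene, both lower, against 2.02% of all genes. Hba-a1, Klf1 and Epor overlapped, at −0.01, −0.03 and −0.05, and the median of the erythroid list was −0.05. Of 6 T and NK cell markers 0 passed by limma and 0 had an unadjusted p under 0.05, with Nkg7 at 0.30 ± 0.18 and Cd3e at 0.19 ± 0.18. Of 8 endothelial and stromal markers 0 passed by limma, and 1 was higher at an unadjusted p under 0.05, Sparc at 1.03 ± 0.23 (limma adjusted p = 0.203, and 0.0373 with replicates 1 and 037 averaged), while Kdr differed by −0.14 ± 0.10.

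**Figure D5:**
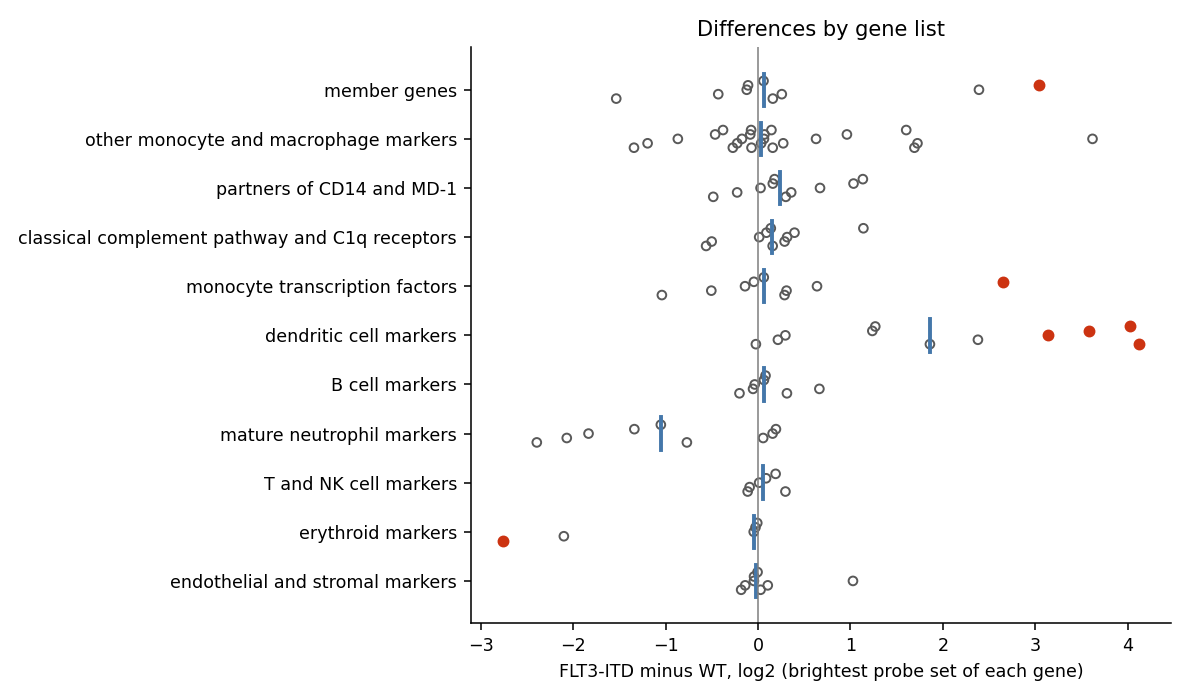
FLT3-ITD minus WT on the log2 scale (horizontal axis) for each measured gene of 11 lists, from its brightest probe set; filled red symbols passed limma's test and blue bars are list medians. The filled symbols furthest right are Cd74, H2-Eb1, H2-Ab1, H2-Aa, Mpeg1 and Irf8. Ccr2 at 3.62 lies among them and Ly86 at 2.39 to the left of them, both without passing. The median is 0.06 for the 9 genes described here against 1.86 for the dendritic cell markers.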

How the data were processed

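Per the labels' protocols, RNA came from a Trizol extraction and was amplified by the WT-Ovation Pico system of NuGEN before biotin labelling. The deposited log2 values per probe set were made by the authors with RMA, per the submitters' processing notes; no version is given in the sources used here. Of 45101 probe sets, 64 were controls, 34945 had exactly 1 gene in the platform annotation of 2016, 932 had several and 9160 had none. Current symbols were found through the Entrez ID for 34741. FLT3-ITD was compared with WT by limma 3.58.1 in R 4.3.3, with no covariate and no filter on dim probe sets, so that every member had a test. P-values were adjusted by Benjamini-Hochberg over all 34945, with a threshold of 0.05, and again over 18193 genes, each read from its brightest probe set. The procedure was tested on simulated data. Alternatives covered the replicate numbers, a filter, normalization, variance models, probe set choice and the removal of each array. Members and gene lists were chosen with earlier results of these data known. Every member was named, with the gate markers, up to 4 called genes of each other list (otherwise the 2 with the smallest p), and the 3 genes closest to a called member; any other gene was named after its values were seen. The short ETS motif was added after the longer one was absent from the printed promoters. Deviations of same-numbered arrays correlated at 0.03 to 0.08, against −0.06 to 0.05 for arrays of unlike number. The labels do not say whether the numbers pair the arrays. The main fit did not take them as pairs, and a fit with the number as a block was an alternative. The number of arrays limits the precision.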

Additional observations from a re-analysis of the deposited data

Results flagged for a closer look

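In 84 groups of 4 arrays, 7 had 1 array far from the other 3; chance alone gives about 1 in 20 groups. The dim probe set 1417063_at of C1qb read 4.30 in WT replicate 3, against 3.72 to 3.79 in the other WT arrays. C2 read 6.95 in FLT3-ITD replicate 1, against 6.61 to 6.65 in the other FLT3-ITD arrays. H2-Eb1 read 5.88 in WT replicate 3, against 6.73 to 6.83, and Slamf1 read 5.75 in WT replicate 1, against 4.24 to 4.48. Sparc read 7.15 in WT replicate 037, against 6.39 to 6.51, and Kit read 8.77 in FLT3-ITD replicate 2, against 9.23 to 9.29. Tnfsf11 read 7.33 in FLT3-ITD replicate 1, against 6.74 to 6.82.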

How the results depend on the processing

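Mpeg1 passed limma's test in 15 of 16 alternatives, with differences of 2.86 to 3.46. The exception was the fit with the replicate number as a block (adjusted p = 0.118), in which 0 members passed per probe set and 0 per gene, 23 probe sets were higher and 3 lower, and 16 genes were higher and 4 lower; it also ended the calls of Cd48 (0.116) and Tnfsf11 (0.130). Whether the numbers pair the arrays is not known from the labels. Ly86 differed by 2.09 to 2.86 and passed per probe set without FLT3-ITD replicate 037. Per gene, 2 members passed with replicates 1 and 037 averaged. Leaving out single arrays gave 1 to 2 members higher and 0 lower in both fits. Over all probe sets it gave 23 to 57 higher and 0 to 13 lower, against 48 and 7, and over genes 26 to 53 higher and 2 to 13 lower, against 50 and 18. Lower probe sets fell to 1 without WT replicate 2 or 3 and to 0 without FLT3-ITD replicate 2.

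Lower probe sets numbered 12 with replicates 1 and 037 averaged, 25 with dim probe sets filtered out, 12 with arrays centred, 11 with quantile normalization, 19 with an intensity trend and 30 with array weights, which also gave 76 higher. Without both 037 arrays 32 genes were higher and 5 lower. The cause of these changes was not tested. Signs of differences near 0 turned on leaving out single arrays for Cd14 (−0.069 to 0.17), C1qc (−0.30 to 0.049), Mrc1 (−0.38 to 0.0026), Slamf1 (−0.38 to 0.13) and Ptprc (−0.13 to 0.089), and Ptprc also with averaging (−0.051), quantile normalization (−0.034) and array weights (−0.072). Dim values limit what could be detected for Cd14, Mrc1 and C1q.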
